A study of Homo sapiens with 40 samples.

Results

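Keratins are the intermediate filament proteins of epithelial cells. The 10 genes described here are the keratins used to tell luminal from basal breast epithelium, or seen in luminal breast cancer cells: KRT8, KRT18, KRT19, KRT7, KRT80, KRT81, KRT5, KRT14, KRT15 and KRT17. They are the rows with these gene names among the 60279 genes of each count table. The rule uses no measured value, but the list was drawn up with earlier results of these data known. Reads per gene had been counted in individual T47D cells. T47D is a human breast cancer line of luminal type that expresses the estrogen receptor. All cells came from 1 untreated culture at passage 10 and were sorted as positive for EpCAM and integrin α6 into the lysis buffer of 1 of 3 protocols. G&T separates mRNA from genomic DNA on beads before cDNA is made, while Takara (SMART-seq HT) and NEB (NEBNext Single Cell/Low Input) are commercial kits that make cDNA from the whole lysate. The NEB cells were given more PCR cycles than the others. Of 13 G&T, 13 Takara and 14 NEB cells, 11 per protocol met the quality thresholds (33 of 40), and these are the cells meant unless others are named. The plates and runs were separate for each protocol, which means that an effect of the protocol cannot be told apart from one of its run. A protocol is therefore 1 sample, its cells are not replicates of it, and no test was made between protocols: differences are given as values, beside the spread over cells.

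A keratin filament is built from pairs of a type II and a type I chain, and a chain without a partner is degraded. KRT8 (type II) with KRT18 and KRT19 (type I) forms the filaments of simple and luminal epithelium, often with KRT7. KRT5 (type II) with KRT14 forms those of basal and myoepithelial cells, where KRT15 and KRT17 are also found. KRT80 is a type II keratin of many epithelia, and KRT81 is a hair keratin that breast cancer cells can express.

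The genes lie in 2 clusters. On GRCh38, the type II genes KRT8, KRT7, KRT80, KRT81 and KRT5 are on chromosome 12, and so is KRT18, which is a type I gene. KRT19, KRT14, KRT15 and KRT17 are on chromosome 17. Several of them share sequence with a close copy, and this bears on what a read count means. Of the 100-base windows of the KRT81 transcript, 30.3% are found again in KRT86, KRT87P or another annotated gene. The coding sequences of KRT81 and KRT86 were identical at 95.3% of 1392 aligned bases, with an identical stretch of 605 bases.

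KRT8 has 51 annotated pseudogenes in the tables. KRT8P12, on chromosome 3, was the second most read of them. KRT8 and KRT8P12 were identical at 90.7% of 1385 aligned bases, and the longest identical stretch had 53 bases.

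KRT18 shares its place rather than its sequence: 375 of its 1413 transcript bases (26.5%, from 52949216 to 52949590 on chromosome 12, all coding) lie inside KRT8 exons annotated on the other strand. Whether the counts used strand is not stated, and without strand a read there cannot be given to 1 of the 2 genes. The window shown runs into this stretch (chr12:52949186-52949245, plus strand), with the 30 bases inside a KRT8 exon in capitals.
KRT18: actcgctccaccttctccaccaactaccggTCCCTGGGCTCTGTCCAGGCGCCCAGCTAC

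The reads on genes in a kept cell ranged from 658154 to 1166633 in G&T and from 818512 to 1287911 in Takara. For NEB this was 624772 to 963816. ERCC spike-ins, added to every cell at the same dilution, took 1.37 to 2.75% of the library in G&T, 0.538 to 1.33% in Takara and 5.66 to 18.9% in NEB. Luminal markers had far more reads than basal markers in all protocols, but KRT8, KRT18 and KRT19, members here, are among the luminal markers. These 3 held 75518 of the 88184 luminal marker reads in G&T, 185267 of 200116 in Takara and 8540 of 22822 in NEB. The 7 luminal markers (EPCAM, KRT8, KRT18, KRT19, ESR1, GATA3 and FOXA1) all had reads in each protocol, and summed to between 3877 and 14553 CPM per cell in G&T, 9897 and 26605 in Takara, but 1648 and 5101 in NEB. CPM give the reads on a gene relative to all reads on genes of a cell, without ERCC reads, and pooled CPM do so for the reads summed over the 11 cells of a protocol. In G&T, Takara and NEB, pooled CPM were 186, 501 and 185 for EPCAM and 235, 73.1 and 877 for ESR1. They were 865, 649 and 667 for GATA3 and 47.7, 44.8 and 63.0 for FOXA1. The lower NEB sum thus lay with the 3 keratins, while ESR1 and FOXA1 were highest in NEB. Of the 7 basal or myoepithelial markers (KRT5, KRT14, KRT17, TP63, ACTA2, MYH11 and OXTR), all were at 0 reads in NEB, while 2 had no read in G&T and 2 had none in Takara, and their sum per cell reached 12.9 CPM in G&T and 141 CPM in Takara. ACTA2, a smooth muscle actin, made up 362 of the 391 Takara reads on this list, with reads in 11 Takara cells. MYH11 made up 32 of the 53 G&T reads on it, in 8 G&T cells. KRT15, which had reads in 10 G&T and 8 Takara cells, is not on this list. The 6 markers of immune, endothelial, fibroblast and mesenchymal cells were also summed per cell. They reached at most 47.2 CPM in a G&T cell, 54.7 in a Takara cell and 128 in a NEB cell. The last was mostly VIM, with 144 reads in 3 NEB cells. COL1A1 had reads in 11 G&T, 10 Takara and 9 NEB cells.

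Together the 10 keratins took 0.811% of the reads on genes in G&T and 1.61% in Takara, against 0.110% in NEB. Over cells the share was 0.802 ± 0.224% in G&T and 1.59 ± 0.530% in Takara, against 0.113 ± 0.0642% in NEB (SD, n = 11 cells). KRT8, KRT18 and KRT19 supplied nearly all of it, with 75518 of 77021 reads in G&T and 185267 of 188222 in Takara, as well as 8540 of 8769 in NEB. Every cell of every protocol had reads on all 3 of these luminal keratins. The basal keratins were at or near 0, apart from KRT15.

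**Figure D1:**
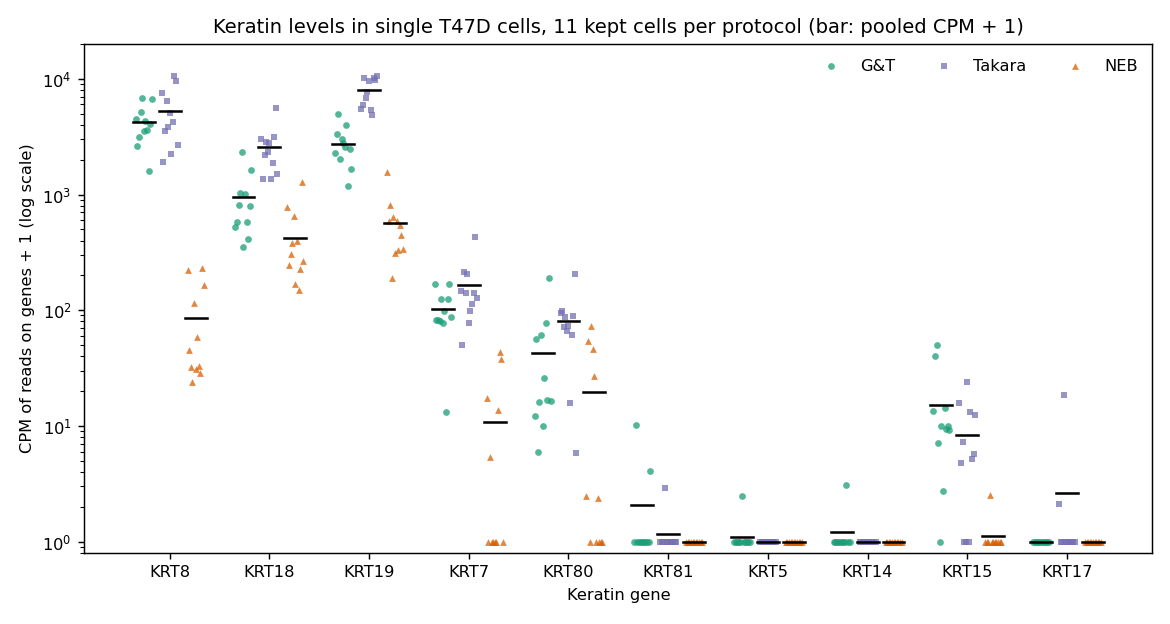
CPM plus 1 of the 10 keratins in each kept cell, on a log axis (points, 11 cells per protocol), with the pooled value as a bar. KRT8 is the gene in which the NEB cells (at most 232 CPM) stand farthest below the others (at least 1606 CPM), and KRT81, KRT5, KRT14 and KRT17 lie at 0 in most cells.

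KRT8, the type II partner of the luminal pair, was among the most abundant transcripts in 2 of the 3 protocols. It ranked 15 among all genes in G&T and 11 in Takara by pooled CPM, and 2163 in NEB. In G&T its level ran from 1606 CPM (cell E2) through a median of 4099 to 6861 (cell C1). In Takara it ran from 1919 CPM (cell A2) through 4213 to 10661 (cell E2). In NEB it ran from 23.0 CPM (cell C1) through 44.1 to 232 (cell G2). The highest NEB cell lay well under the lowest cell of either other protocol, so that the NEB range was apart from both, while the G&T and Takara ranges overlapped. In reads, the NEB cells held between 15 and 147 on KRT8, so the gene was found in 11 of 11 cells of each protocol. Pooled over cells, G&T had 4237 CPM (95% Poisson interval 4196 to 4279) and 5234 CPM in Takara (5193 to 5276), against 84.8 CPM in NEB (78.5 to 91.4). These intervals, from 40255, 61327 and 676 reads, cover counting error only and hold no spread between cells or runs. On the scale of log2(pooled CPM + 1), on which all log2 ratios are given, NEB stood at -5.93 against Takara and at -5.63 against G&T, which is 61.0-fold and 49.4-fold lower. G&T against Takara was -0.30, well inside the SD over cells of 0.60 in G&T and 0.82 in Takara. Among the 35 genes of at least 2000 CPM in Takara, KRT8 had the lowest NEB-to-Takara ratio. Among the 44 genes of at least 2000 CPM in G&T, 1 other gene had a NEB-to-G&T ratio as low. Both sets were chosen by a high level in the protocol compared with NEB, which favours low NEB ratios. With a limit of 500 CPM, 5 of 279 genes in Takara and 3 of 239 in G&T were as low as KRT8 or lower, KRT8 included.

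KRT18, the type I partner of KRT8, was also lowest in NEB, but by far less. Its G&T cells ran from 351 CPM (D1) through a median of 792 to 2349 (C1). Its Takara cells ran from 1352 CPM (D2) through 2322 to 5567 (G1). Its NEB cells ran from 150 CPM (E1) through 307 to 1292 (G2). Every NEB cell was below every Takara cell, whereas the G&T cells overlapped with both. Pooled levels were 955 CPM in G&T (936 to 975) and 2592 in Takara (2563 to 2622), against 420 in NEB (406 to 434). The log2 ratio was -2.62 for NEB over Takara (6.16-fold lower), -1.18 for NEB over G&T (2.27-fold lower) and -1.44 for G&T over Takara (2.71-fold lower). Without G&T cell C1, the highest for this gene, NEB over G&T came to -0.92 and was no longer past 2-fold.

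KRT19, the smallest keratin and a type I chain of luminal and simple epithelia, was the most abundant keratin in Takara, where it ranked 6 among all genes. In G&T the cells ran from 1187 CPM (E2) through a median of 2564 to 5001 (B1). In Takara they ran from 4848 CPM (E1) through 7696 to 10558 (H1), a range of 2.18-fold, the narrowest of any keratin and protocol with reads in every cell. In NEB they ran from 190 CPM (C1) through 539 to 1553 (A1). NEB cells again lay below all Takara cells, and the highest NEB cell lay inside the G&T range. Pooled levels were 2756 CPM in G&T (2723 to 2790) and 7986 in Takara (7935 to 8037), against 566 in NEB (550 to 583). NEB over Takara was -3.81 on the log2 scale (14.1-fold lower), NEB over G&T -2.28 (4.86-fold lower) and G&T over Takara -1.53 (2.90-fold lower).

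The spread over cells can be set beside that of other genes with a read in every kept cell of a protocol, whose median coefficient of variation was 59.7% with G&T, 44.1% with Takara and 53.8% with NEB. KRT8 had 38.0%, 56.0% and 91.0%, KRT18 65.3%, 47.2% and 77.9%, and KRT19 38.8%, 28.6% and 64.0%, in the same order. KRT19 was thus the steadiest of the 3 in Takara and in NEB, and KRT8 had the widest spread of the 3 in NEB, where it also had the fewest reads.

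KRT7, a type II keratin of simple and glandular epithelia, was found in 11 of 11 cells with G&T and with Takara and in 5 of 11 NEB cells. The level ran from 12.1 CPM through a median of 86.1 to 169 in G&T, from 48.6 through 139 to 429 in Takara, and from 0 through a median of 0 to 42.1 in NEB. All NEB cells lay below all Takara cells, and they overlapped with the G&T cells at the G&T minimum (E1). Pooled, this was 100.9 CPM (94.7 to 108), 163 CPM (156 to 171) and 9.78 CPM (7.73 to 12.2). NEB over Takara was -3.93, NEB over G&T -3.24 and G&T over Takara -0.69 on the log2 scale. Part of the KRT7 transcript (13.6% of its bases) lies in the exons of the antisense gene KRT7-AS, so the reads of the 2 are not told apart where strand was not used.

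KRT80 varied most among the keratins that were found in every G&T and Takara cell. It ran from 4.97 CPM (B1) through 15.7 to 190 (G1) in G&T and from 4.85 CPM (H1) through 71.9 to 203 (G1) in Takara, ranges of 38.3-fold and 42.0-fold. In NEB it was found in 6 of 11 cells (54.5%, exact binomial interval 23.4 to 83.3%) and reached 71.9 CPM. The ranges of all 3 protocols overlapped. Pooled levels were 41.8 CPM in G&T and 79.6 in Takara, against 18.8 in NEB, with log2 ratios of -2.02 for NEB over Takara, -1.11 for NEB over G&T and -0.91 for G&T over Takara. The last 2 lie near the 2-fold limit. Without G&T cell G1, NEB over G&T came to -0.57 and G&T over Takara to -1.46. In all, 7 single-cell omissions moved NEB over G&T to within 2-fold. Those other than G1 were of NEB cells with at most 1 read on KRT80, and left the ratio between -0.97 and -0.999. KRT81 had 10 reads in 2 G&T cells, 2 reads in 1 Takara cell and none in NEB, for which the limit of a 0 count is 0.376 CPM. The G&T level was 6.17 times the Takara level with a counting interval of 1.31 to 57.9, and at least 2.80-fold higher than in NEB, set against a floor of 3 reads over the protocol. Both values rest on G&T cell A2, which held 7 of the 10 reads. Without it the ratio to Takara was 2.01 (0.230 to 24.1), and the 3 reads left were at the floor, so no fold to NEB can be given. With its long identical stretch in KRT86, a read on KRT81 remains uncertain.

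KRT15, a type I keratin of basal epithelial and stem cells, was the exception among the basal keratins. It had 134 reads in 10 of 11 G&T cells, 86 reads in 8 of 11 Takara cells and 1 read in 1 of 11 NEB cells. G&T cells ran from 0 CPM (C1) through a median of 8.88 to 48.7 (B1), and Takara cells from 0 through 4.75 to 23.1 (D1). These ranges overlapped widely, and the single NEB read, in cell C1, was worth 1.53 CPM. Pooled, G&T had 14.1 CPM (11.8 to 16.7), Takara 7.34 (5.87 to 9.06) and NEB 0.125 (0.00318 to 0.699). The Takara level was 58.5 times the NEB level with a counting interval of 10.2 to 2338, and the G&T level was 112.5 times it (19.8 to 4475). Both ratios rest on the 1 read of NEB cell C1, and without that cell NEB was at 0. Against a floor of 3 reads over the other NEB cells, the level was then at least 17.9-fold higher in Takara and at least 34.4-fold higher in G&T. KRT15 shares no 100-base window with another annotated gene. KRT15 and KRT81 were the only 2 of the 8 genes tested whose pooled level was higher in G&T than in Takara, with log2 ratios of 0.86 and 0.81. For KRT15 the direction depended on the scale, since per 1000 ERCC reads it had 0.730 reads in G&T and 0.757 in Takara. Leaving out G&T cell C1 or D2, or Takara cell D1, brought KRT15 past 2-fold (1.004, 1.01 and 1.18).

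The other 3 basal keratins were close to absent. KRT5, the type II basal keratin, had 1 read, in G&T cell D1. KRT14, its type I partner, had 2 reads, both in G&T cell E2. KRT17, a type I keratin of basal and injured epithelium, had 19 reads in Takara, 18 of them in cell B2 and 1 in cell A1, and none in G&T or NEB. The limit set by a 0 count is 0.316 CPM with G&T, 0.256 CPM with Takara and 0.376 CPM with NEB. KRT17 was therefore at least 5.14-fold higher in Takara than in G&T and at least 4.31-fold higher than in NEB, but without cell B2 it was at 0.0936 CPM in Takara and in no comparison past 2-fold. Cell B2 was within the Takara range for KRT8 and KRT18 and had no read on KRT15, KRT5 or KRT14. It was also the only Takara cell with reads on KRT81. KRT5 and KRT14 were each found in 1 cell, too few to tell whether these basal partners occur together.

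Per length of transcript, in RPKM (CPM divided by the transcript length in kilobases), the luminal keratins stood in a different order in each protocol. The KRT18 length includes the 375 bases inside KRT8 exons. Without strand, reads there would be given to neither gene, so its RPKM may be too low. In G&T the pooled order was KRT8 (2375), KRT19 (1983), KRT18 (676), KRT7 (62.1), KRT80 (10.8) and KRT15 (8.24). In Takara it was KRT19 (5745), KRT8 (2934), KRT18 (1835), KRT7 (100.6), KRT80 (20.6) and KRT15 (4.29). In NEB it was KRT19 (408), KRT18 (297), KRT8 (47.5), KRT7 (6.02), KRT80 (4.86) and KRT15 (0.0733). Several neighbours in these orders were closer than the larger of their SDs over cells. These were KRT8 and KRT19 in G&T (KRT8 higher in 7 of 11 cells), KRT80 and KRT15 in G&T (5 of 11), KRT8 and KRT18 in Takara, KRT19 and KRT18 in NEB (8 of 11), KRT8 and KRT7 in NEB, KRT7 and KRT80 in NEB (5 of 11), and KRT80 and KRT15 in NEB (6 of 11). In Takara KRT8 was above KRT18 in 11 of 11 cells and in NEB KRT18 was above KRT8 in 11 of 11 cells, so the order within this pair was opposite in every cell of the 2 protocols.

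The split of the luminal keratin reads shows the same shift cell by cell. KRT8 made up 35.2 to 67.2% of the KRT8, KRT18 and KRT19 reads of a G&T cell (median 54.9%), 18.3 to 46.9% in Takara (median 28.9%) and 2.70 to 21.4% in NEB (median 5.91%). KRT18 made up 5.28 to 19.2% in G&T, 10.1 to 22.4% in Takara and 26.7 to 65.5% in NEB. No NEB cell overlapped with a cell of another protocol in the KRT18 share, and NEB and G&T cells did not overlap in the KRT8 share. The ratio of type II to type I reads, KRT8 over KRT18 and KRT19 together, was 1.14 pooled in G&T (cells 0.542 to 2.05) and 0.495 in Takara (0.223 to 0.882), against 0.0860 in NEB (0.0277 to 0.272). Per length these were 0.893, 0.387 and 0.0674, with the KRT18 length taken whole, bases inside KRT8 exons included. The ratio of KRT8 to KRT18 alone was 4.43 in G&T and 2.02 in Takara, against 0.202 in NEB, over cells 2.92 to 10.0, 1.41 to 3.37 and 0.0602 to 0.617. KRT18 over KRT19 differed less, at 0.347 with G&T, 0.325 with Takara and 0.741 with NEB, with cells of all protocols overlapping.

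**Figure D2:**
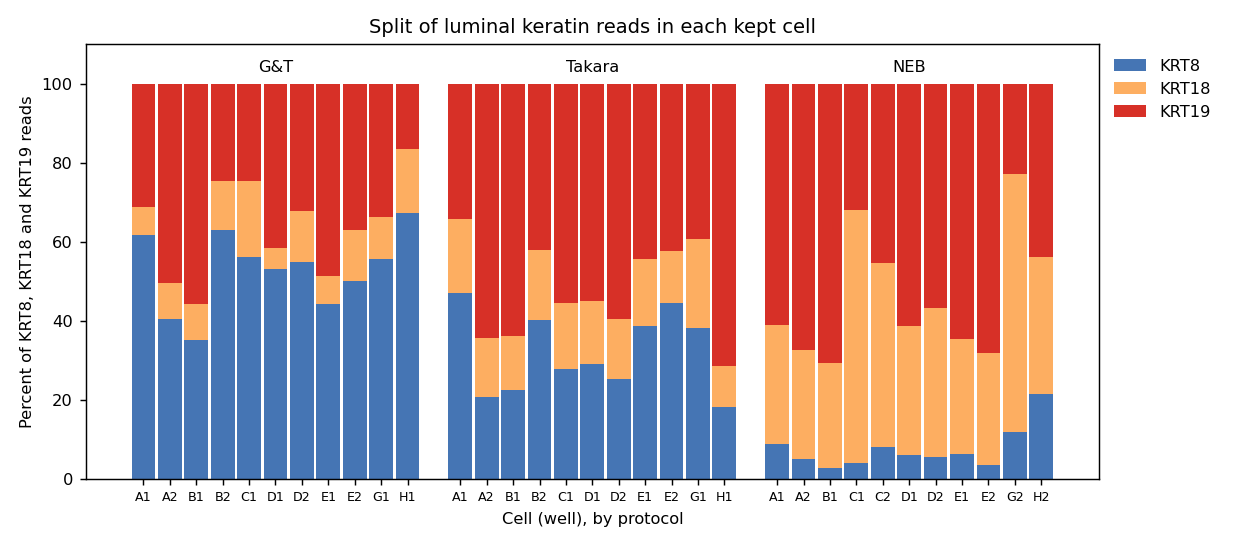
Percent of the KRT8, KRT18 and KRT19 reads that fall on each of the 3 genes, 1 bar per kept cell, by protocol. The KRT8 share (blue) is 2.70 to 21.4% in NEB cells against 35.2 to 67.2% in G&T cells.

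Between protocols, a gene was called when its pooled CPM + 1 differed by more than 2-fold, among genes of at least 1 CPM in either protocol. The 3 comparisons share protocols, so they are not independent of each other. In NEB over Takara, 7 of the 7 keratins tested were lower past 2-fold and 0 were higher, where 43.7% of all 13532 genes tested were lower and 24.3% higher. In NEB over G&T, 7 of 7 were lower and 0 higher, against 48.7% and 19.5% of 14795 genes. In G&T over Takara, 3 of 8 were lower (KRT18, KRT19 and KRT17) and 0 higher, against 17.0% and 25.7% of 14658 genes. Some of these calls were set by the filter. A gene at 0 in 1 protocol that reaches 1 CPM in the other is past 2-fold once 1 CPM is added, and this holds for KRT17 in both comparisons with Takara and for KRT81 in NEB over G&T. KRT15 also passed the filter in the comparisons with NEB only through the other protocol. Among genes of at least 1 CPM in both protocols, a filter added after the values were seen, KRT8, KRT18, KRT19, KRT7 and KRT80 remained in the comparisons with NEB. All 5 were lower in NEB than in Takara past 2-fold, where 30.6% of 9199 genes were lower and 26% higher, with median log2 ratios of -3.81 for the 5 and -0.06 for all. All 5 were lower in NEB than in G&T, where 30.4% of 9414 genes were lower and 23.1% higher, with medians of -2.28 and -0.09. In G&T over Takara 2 of 6 were lower (KRT18 and KRT19) and 0 higher, against 17.3% and 17.8% of 11678 genes, with medians of -0.80 and -0.02. Keratins whose cells did not overlap were 4 in NEB over Takara (KRT8, KRT18, KRT19 and KRT7, all lower), where 8.41% of genes had every NEB cell lower and 1.61% every NEB cell higher. They were 1 in NEB over G&T (KRT8, lower), against 3.31% lower and 1.03% higher, and 0 in G&T over Takara, against 1.26% lower and 0.669% higher.

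**Figure D3:**
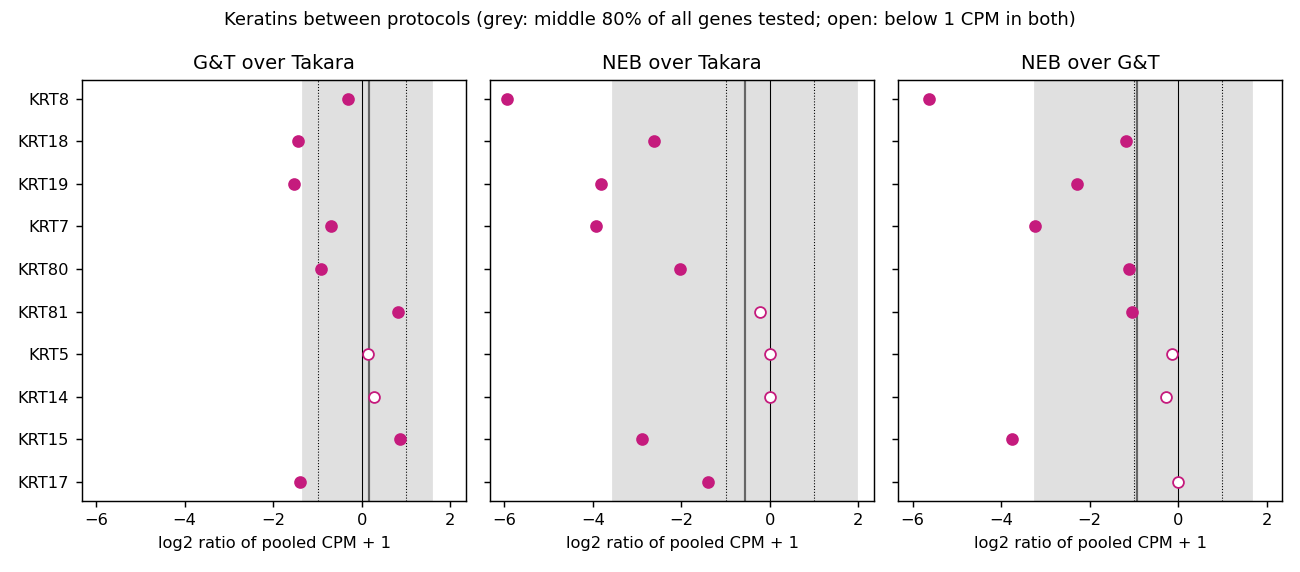
Log2 ratio of pooled CPM + 1 of each keratin in 3 pairs of protocols (points, open where below 1 CPM in both), with the middle 80% of all genes tested (grey band), their median (grey line) and 2-fold (dotted). KRT8 lies at -5.93 and -5.63 in the comparisons with NEB, outside the grey band, and at -0.30 in G&T over Takara.

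Relative to ERCC reads the gaps of the 3 luminal keratins were wider. Per 1000 ERCC reads, KRT8 had 219 reads in G&T and 540 in Takara, against 0.647 in NEB, KRT18 had 49.5, 267 and 3.21, and KRT19 had 143, 824 and 4.33. The highest NEB cell had 1.39 KRT8 reads per 1000 ERCC reads, and the lowest G&T cell 56.8. On this scale 4 of the 10 keratins had no overlap of cells between NEB and G&T, in place of 1, all lower in NEB, where 11.6% of all genes tested had every NEB cell lower, in place of 3.31%. The median of all genes moved by -3.36 on the log2 scale for NEB over Takara, -2.31 for NEB over G&T and -0.98 for G&T over Takara when ERCC reads set the scale, so the change applied to the whole library and not to keratins alone.

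The GC content of the transcript moved with the NEB ratios. This was looked at after the keratin values were known. Over 4293 protein-coding genes of at least 50 CPM in Takara or G&T, GC content and log2 ratio were compared by Spearman correlation across genes. It was -0.73 for NEB over Takara, -0.69 for NEB over G&T and -0.31 for G&T over Takara. For transcript length it was 0.31, 0.16 and 0.32 in the same order, so for G&T over Takara length went with the ratio about as closely. Genes are not independent replicates. With the genes split into 10 bins of rising GC content and equal size, the median NEB-to-Takara log2 ratio was 1.004 in bin 1 and -4.31 in bin 10. The keratins are GC-rich, with 59.3% in KRT8, 58.2% in KRT18, 61.8% in KRT19, 62.0% in KRT7 and 56.9% in KRT80. KRT8, KRT18 and KRT80 fall in bin 9, with a median of -3.04 for NEB over Takara, and KRT19 and KRT7 in bin 10. The bins hold only genes of at least 50 CPM in Takara or G&T. Genes high in NEB alone were left out, which favours lower bin medians of the NEB ratios. KRT7 and KRT80 did not reach 50 CPM in NEB. Against the median of their own bin, KRT18 was at 0.42, KRT80 at 1.02, KRT19 at 0.50 and KRT7 at 0.38 for NEB over Takara, so all 4 lay above it. KRT8 lay below, at -2.89, and 39 of the 429 genes of its bin were as low or lower. For NEB over G&T, 17 of the 429 were as low as KRT8 or lower, and 334 as low as KRT18 or lower. KRT8 and KRT18 thus stood on opposite sides of genes of like GC content. The part of GC content or of length in these results was not tested.

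**Figure D4:**
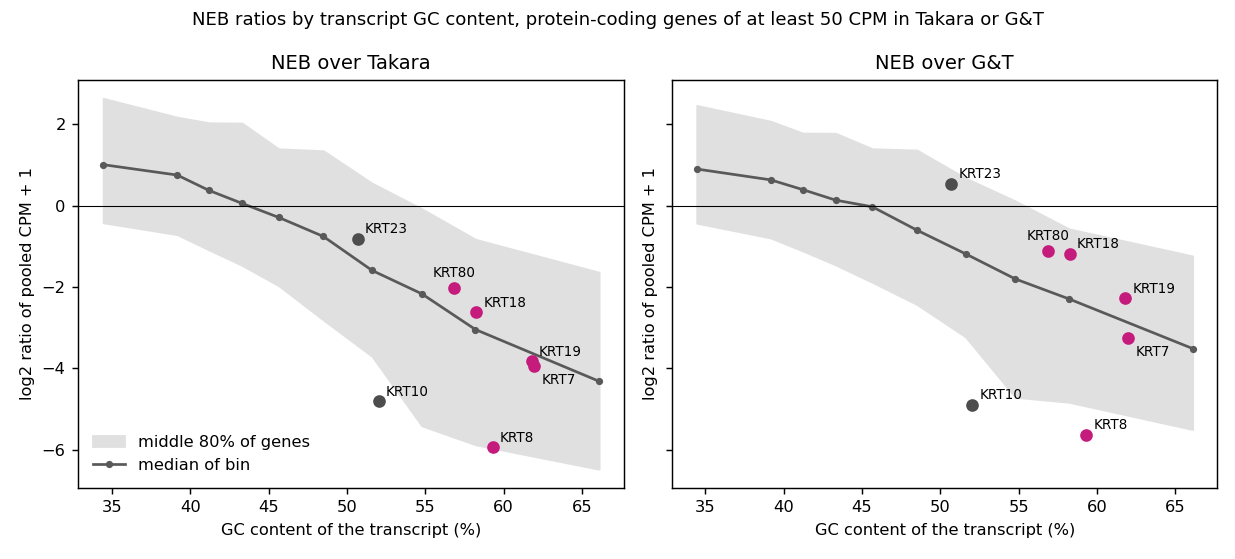
Log2 ratio of NEB over Takara and over G&T by transcript GC content: median (line) and middle 80% (grey) of the genes in each of 10 bins of GC content, with the 5 luminal-type keratins (pink) and KRT10 and KRT23 (grey). KRT8, at -5.93 and -5.63, lies far below the medians of its bin (-3.04 and -2.29), while KRT18, KRT19, KRT7 and KRT80 lie above theirs.

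KRT8 and KRT18 also went together from cell to cell. Over the 11 cells of a protocol, the Spearman correlation of their CPM was 0.72 with G&T, 0.95 with Takara and 0.64 with NEB. These are descriptions with no test, since the cells share culture, plate, run and a common CPM denominator. Among 1287 other genes with a read in all 33 cells, KRT18 was the gene most like KRT8, and KRT8 the gene most like KRT18, by the mean of the 3 correlations (0.77, where the median gene had 0 with KRT8 and 0.03 with KRT18). In G&T cells C1 and H1 were the highest for both genes, in Takara cells G1 and E2, and in NEB cells G2 and A1. Without the 2 cells farthest from the median KRT8 level, the correlation was 0.48 in G&T and 0.93 in Takara, against 0.33 in NEB, so in G&T and NEB it rested in good part on those cells.

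KRT19, the other type I partner, did not follow KRT8 in the same way, with correlations of -0.25 with G&T, 0.21 with Takara and 0.44 with NEB, nor KRT18, with 0, 0.33 and 0.45. In this likeness KRT19 ranked 324 of 1287 for KRT8 and 158 for KRT18. The genes next most like KRT8 were ATP5MC2, a subunit of ATP synthase, at a mean of 0.55, and CAP2, an actin-binding protein, at 0.50. Those next most like KRT18 were SERF2 (0.68) and CFL1, the actin-severing cofilin (0.67). Those most like KRT19 were PGR, the progesterone receptor (0.68), MRFAP1 (0.65) and TRPS1, a GATA-type transcription factor of luminal breast cells (0.62). These genes were picked by the same values, out of 1287.

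**Figure D5:**
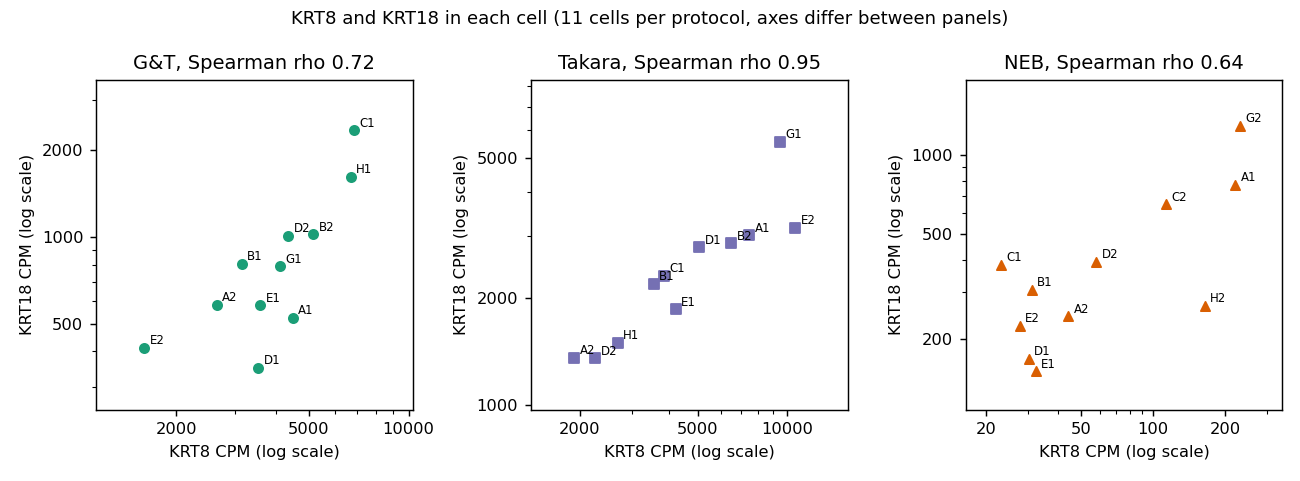
KRT18 against KRT8 in each kept cell (CPM on log axes, 11 cells per protocol, wells as labels). The Spearman correlation is 0.72 in G&T and 0.95 in Takara, against 0.64 in NEB, and the NEB panel spans KRT8 levels of 23.0 to 232 CPM.

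Of 45 other protein-coding keratin genes in the tables, 22 had a read in some kept cell and 10 reached 1 CPM pooled in a protocol. KRT10, the type I keratin of the differentiating epidermis, had 211 CPM with G&T, 199 with Takara and 6.15 with NEB, in 11, 11 and 5 cells, so its NEB-to-Takara log2 ratio of -4.80 was low like that of KRT8. It has 52.0% GC, in a bin with a median of -1.59, and it overlaps an annotated antisense gene. KRT23, a type I keratin of glandular epithelia, behaved otherwise, with 53.2 CPM in G&T and 138 in Takara, against 77.6 in NEB, a ratio of -0.82. KRT86, the near copy of KRT81, had 51 reads in 4 G&T cells, 49 reads in 7 Takara cells and 2 reads in 1 NEB cell, more than KRT81 in each protocol. The other 7 (KRT13, KRT4, KRT33A, KRT79, KRT24, KRT83 and KRT78) stood at 4.63 CPM or less, were found in at most 3 cells of a protocol and had no read in NEB. In all, 42 of the 45 had no read in NEB cells. In G&T cells these were 29, and in Takara cells 32.

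Reads on KRT8 pseudogenes were few against those on KRT8. They came to 751 in G&T (1.87% of the KRT8 reads) and 616 in Takara (1.00%), against 0 in NEB. The 5 most read keratin pseudogenes were all copies of KRT8: KRT8P3 with 466 G&T and 399 Takara reads, then KRT8P12 (48 and 97), KRT8P36 (34 and 53), KRT8P45 (46 and 32) and KRT8P39 (29 and 14). The 67 KRT18 pseudogenes held 74, 58 and 41 reads in G&T, Takara and NEB, or 0.815%, 0.191% and 1.22% of the KRT18 reads. Of the 41 NEB reads, 33 were on KRT18P5 in cell C1, and without that cell the NEB share was 0.258%. Reads that STAR gave to more than 1 place were 4.14% of all reads with G&T, 3.74% with Takara and 2.81% with NEB, and reads on overlapping genes 8.79%, 10.6% and 5.68% (means over cells). These enter no gene's count, and how many were keratin reads is not known.

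Genes for the proteins that bind keratin filaments had median ratios close to those of all genes. Of 23 such genes (plakins, desmosome and hemidesmosome parts, and others), 19 were tested in each pair. In NEB over Takara 8 were lower past 2-fold and 5 higher, with a median log2 ratio of -0.27 against -0.56 for all genes. In NEB over G&T 10 were lower and 3 higher (median -1.004 against -0.92), and in G&T over Takara 5 and 5 (median 0.31 against 0.16). YWHAZ, a 14-3-3 protein, had 1474 CPM in G&T and 1268 in Takara, against 1659 in NEB. DSP, the desmosomal plakin that anchors keratins, had 287, 201 and 398 CPM. JUP, the desmosomal plakoglobin, had 234, 706 and 2.01 CPM, a NEB-to-Takara log2 ratio of -7.88 that was lower still than that of KRT8. Among 12 other intermediate filament genes, 7 were tested in each pair, and 2 were lower in NEB than in Takara past 2-fold and 1 higher. LMNA, the nuclear lamin A/C gene, was the most abundant at 368, 701 and 87.3 CPM. VIM, the filament of mesenchymal cells, was at 1.26 CPM with G&T, 2.13 with Takara and 18.1 with NEB.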

How the data were processed

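Cells of T47D were prepared with G&T, Takara or NEB. Per the paper's methods and the submitters' processing notes, the authors trimmed reads with Trim Galore and used STAR for alignment (GRCh38) and gene counting. They deposited 1 table of raw read counts per gene for each protocol, not normalized and without molecular identifiers. The annotation release and strand setting are not stated in the sources used here. Cells were kept as the study did, with at least 1000 genes, at least 600000 reads on genes and ERCC spike-ins, mitochondrial reads of no more than 30% and an ERCC share of no more than 25%.

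Symbols, lengths, GC content and sequences came from GENCODE 44 on GRCh38, matched by Ensembl identifier (56104 of 60279 genes). Per gene, the transcript used was the one tagged as canonical. All 10 members matched. CPM were computed over reads on genes, 1 CPM was added before log2 ratios, and genes of at least 1 CPM in either protocol were compared. Intervals are exact Poisson or binomial ones at 95%, and a 0 count was limited by 3 reads. They cover counting error only. No test was made, since a protocol is 1 sample.

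The members and gene lists were chosen with earlier results of these data known. Named are the members, other keratins of at least 1 CPM, the 5 most read keratin pseudogenes, at most 4 examples a list and the 3 genes most like KRT8, KRT18 and KRT19. Python 3.11.15 with pandas 2.3.3 and scipy 1.17.1 was used, and edgeR 4.0.16 for TMM factors. Steps were tested on simulated data. Sequence windows of KRT8, KRT81 and their copies are not reported here. Alternatives covered denominators, pseudocounts, TMM, thresholds, cells and pooling. GC content and shared sequence were added after the values were seen.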

Additional observations from a re-analysis of the deposited data

Results flagged for a closer look

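Keratin reads were also present in 6 of the 7 cells that missed a quality threshold and entered no comparison, above the limit of 3 reads that a count of 0 allows. Summed over KRT8, KRT18 and KRT19, G&T cell F1 had 5557 reads (9524 CPM, exact Poisson interval 9275 to 9778), which is inside the range of the kept G&T cells. G&T cell C2, with 33.7% mitochondrial reads, had 715 reads (1013 CPM, 940 to 1090), below every kept G&T cell. NEB cell B2 had 450 reads (999 CPM, 908 to 1095) and NEB cell F2 had 267 (486 CPM, 429 to 547). The kept NEB cells ran from 509 to 2545 CPM. In B2, 405 of the 450 reads were on KRT19 and 3 on KRT8. Takara cells C2 and F1, in which ERCC spike-ins made up 91.3% and 96.7% of the library, had 6 and 4 reads. NEB cell F1, with 99.7% ERCC reads, had 0.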

How the results depend on the processing

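Of 99 values of the summary results under alternatives other than leaving out each cell in turn, 79 counted as unchanged. So did all 165 values with each cell left out in turn. These were made for the levels, ratios and correlations, not for counts of keratins or of basal keratin reads. For single keratins 473 of 537 values counted as unchanged, and 990 of 990 with 1 cell left out. Unchanged meant a move within the spread over cells, or for counts of genes or cells by at most 1.5 times. Correlations were judged by a leave-one-out standard error, and basal read totals by their Poisson interval. Levels per 1000 ERCC reads were set directly against CPM, so their labels reflect the unit. KRT8 in G&T (219 against 4237) counted as changed, and KRT7 in NEB (0.0747 against 9.78) as unchanged. Leaving out 1 cell can hardly move a value by more than the spread over cells. The tallies with 1 cell left out therefore do not show that the results are robust. KRT17 in G&T over Takara went from -1.39 to -0.13 without Takara cell B2 and was still counted as within the spread. Some calls at the 2-fold limit did change with 1 cell left out, as given with KRT17, KRT18, KRT80, KRT81 and KRT15. KRT81 NEB over G&T fell inside 2-fold without G&T cell A2 (-0.43) or H1 (-0.86). Scaled by ERCC reads, KRT8, KRT18 and KRT19 summed to 411 reads per 1000 ERCC reads in G&T, 1631 for Takara and 8.18 for NEB, and the log2 ratio of the sum moved from -0.99 to -1.99 for G&T over Takara, from -3.88 to -7.64 for NEB over Takara and from -2.89 to -5.65 for NEB over G&T. In G&T over Takara 6 of 8 keratins were then past 2-fold (59.4% of all genes) in place of 3, and 1 had no overlap of cells (4.41% of all genes) in place of 0. In NEB over G&T 4 had no overlap (11.6% of all genes) in place of 1. With a 1.5-fold limit 7 of 8 keratins were past it in G&T over Takara (65.4% of all genes), and with a 4-fold limit 0 (6.82%), while 4 of 7 were past 4-fold in NEB over G&T (31.7%). With all deposited cells the number without overlap in NEB over Takara went from 4 to 0, since Takara cells C2 and F1, with few reads on genes, entered. Set against the median of genes in the same GC bin, an alternative added after seeing the data, the sign turned for NEB over Takara in KRT18 (0.42), KRT19 (0.50), KRT7 (0.38) and KRT80 (1.02), and for NEB over G&T in KRT18 (1.11), KRT19 (1.23), KRT7 (0.27) and KRT80 (1.18). In G&T over Takara it turned for KRT8 (from -0.30 to 0.58) and KRT7 (from -0.69 to 0.26), neither past 2-fold before or after. The genes of the bins were chosen by their level in Takara or G&T, which favours lower medians of the NEB ratios. The KRT8 and KRT18 correlation was 0.48 in G&T and 0.33 in NEB without the 2 cells farthest from the median KRT8, and in Takara 0.91 as Pearson's r and 0.79 on reads per ERCC read. Without the cell with most of them, reads on the 4 basal keratins went from 137 to 88 in G&T, from 105 to 79 in Takara and from 1 to 0 in NEB. With TMM factors the median ratio of all genes shifted by -0.06 in G&T over Takara, by 0.04 in NEB over Takara and by 0.09 in NEB over G&T on the log2 scale, which changed none of the 3 counts past 2-fold. Unless a cause is named, the cause was not tested. No paired analysis was possible because well names mark no shared cell between protocols and no test was made. A count of 0 limits the pooled level of a keratin and not the share of cells that express it.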
